A study of Mus musculus with 24 samples.

Results

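The comparison set the B cells of non-obese diabetic mice that the labels call FO against the C57BL/6 B cells called T3, a pairing that crosses the labels because the transcripts that mark B cell subsets do. It took 4 of the 24 arrays of the study, 2 labelled NOD FO and 2 labelled B6 T3. NOD/ShiLtJ (NOD) mice develop autoimmune diabetes, and C57BL/6/J (B6) mice do not. All animals were females aged 7 weeks, and no treatment or engineered allele is recorded in the labels. For each experiment the spleens of 8 mice of a strain were pooled, red cells were removed, T cells and CD11b-bearing myeloid cells were depleted through magnetic beads, and flow cytometry with antibodies to CD93, CD23, CD24, IgM, B220 and the complement receptors CD21 and CD35 divided the remaining B cells into fractions called T1, T2FO, T3, FO, T2MZ and MZ. The experiment was done again for the second replicate, so all 24 arrays came from 4 pools of mice, and arrays of a pool are not independent of each other. The groups were chosen by measured values, namely the transcripts of subset markers such as Cd93 and of macrophages such as C1qa, and what those genes show is therefore a description.

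B cells that leave the bone marrow pass through transitional stages in the spleen, marked by CD93, before they become follicular or marginal zone cells. T3 cells keep CD93 and carry little surface IgM; they have been described as a side branch of B cells that met self antigen rather than as a step towards maturity. Follicular (FO) cells have lost CD93, carry CD23 and recirculate through lymphoid tissue. The spleen also holds red pulp macrophages, which clear aged red cells, recycle their iron and make the complement protein C1q. They carry little CD11b.

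The deposited values are log2 values centred on the median of each probe set, so they give differences between arrays and no expression level; a difference of 1 is a 2-fold difference. Of 45101 probe sets, 34945 belonged to 1 gene, and the most variable of each gene's probe sets stood for it, which gave 18193 genes. The spread between replicates (root mean square SD over genes) was 0.256 in NOD FO and 0.538 in B6 T3. The beta-actin control probes near the 5' end also differed. It was 0.768 and 0.605 in the NOD FO arrays, -1.02 in B6 T3 replicate 1 and -3.27 in B6 T3 replicate 2, while the 3' end of the same transcript lay between -0.271 and 0.173 in these 4 arrays. Counts of calls with this signal as a covariate, and without the 6 B6 arrays lowest in it, are given with the alternatives. Nnt, a mitochondrial gene with a deletion in C57BL/6J, stood at 0.52 and -0.00 in NOD FO and at -1.10 and -0.94 in B6 T3, a difference of 1.28 ± 0.42 (SE) in the direction of the strain labels. It did not pass the adjusted p threshold of 0.05 used below, and its other probe sets gave 0.23 and 0.57.

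The labels and the subset transcripts did not go together. Cd93, whose protein was sorted on, stood at -0.59 and -0.36 in the NOD FO arrays and at 2.22 and 2.83 in B6 T3. The group means of B6 were 3.06 in T1, 2.75 in T2FO, 2.52 in T3 and -0.20 in FO, and NOD FO had -0.47. By this gene alone the NOD FO arrays were near B6 FO and far from B6 T3. Cd93 was however lower in NOD as a whole: the highest NOD group mean was 0.21, in the arrays labelled T2FO. The 5 probe sets of Cd93 did not speak with one voice either, with differences between NOD FO and B6 T3 of -3.02, -3.00, -0.72, -0.40 and 0.01.

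Other markers pointed in more than one direction. Myb, a transcription factor of immature lymphocytes, stood at 0.48 in NOD FO, at 1.51 in B6 T3 and at -1.44 in B6 FO (means of 2 arrays). Lef1, another factor of early lymphocytes, was 0.69 in NOD FO and 0.64 in B6 T3. Sox4 was 0.02 and 1.88. Fcer2a, which encodes CD23, stood at 0.79 in NOD FO, -0.25 in B6 T3 and 1.70 in B6 FO, whereas the NOD arrays labelled T3 and T2MZ reached 1.54 and 1.64. Cr2, which encodes CD21 and CD35, did not set the groups apart, with -0.06 in NOD FO, -0.34 in B6 T3 and 0.05 in B6 FO. Some genes high in B6 MZ were higher in NOD FO than in B6 T3: Asb2 had 0.94 and -0.26, Dtx1, a Notch target, 0.76 and -0.21, and Cd9 0.82 and -0.32. Cd36 had -0.06 and 0.51 in the NOD FO arrays against -2.27 and 0.27 in B6 T3. For Cd9 and Cd36 the arrays of the groups overlapped. These genes belong to the markers behind the pairing and are given as a description, without a test.

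The pairing therefore depended on how the strains were put on one scale. Over 27 gate and subset markers, with values as deposited, the root mean square difference of NOD FO was 0.687 from B6 T2MZ, 0.983 from T2FO, 0.991 from T3, 1.01 from FO, 1.15 from T1 and 1.45 from MZ. With each marker centred within its strain, T3 was nearest at 0.310, followed by T2FO at 0.426, T1 at 0.655, T2MZ at 0.910, FO at 1.06 and MZ at 1.83. The NOD FO arrays thus held the place among the NOD groups that T3 holds among the B6 groups, and were not closest to B6 T3 in their values themselves. In every result that follows, strain and any difference in subset between the labelled groups cannot be told apart.

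**Figure D1:**
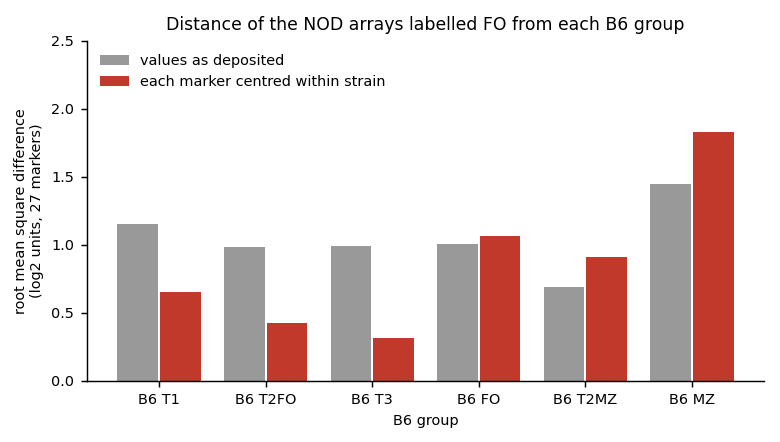
Root mean square difference (log2 units, 27 markers) between the mean of the 2 NOD FO arrays and the mean of each B6 group on the horizontal axis, with values as deposited (grey) and with each marker centred within its strain (coloured). T2MZ has the shortest grey bar at 0.687 and T3 the shortest coloured bar at 0.310.

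Set against B6 T3, the NOD FO arrays differed in 711 of 18193 genes (3.91%) by limma with Benjamini-Hochberg adjustment, 421 higher (2.31%) and 290 lower (1.59%), and 2493 genes had an unadjusted p under 0.05. The median difference over all genes was -0.05, and in 6980 genes (38.4%) the arrays of the groups did not overlap. Most of these genes were also called between the NOD and B6 arrays of the other groups, and the remainder held many transcripts of macrophages. The other 20 arrays, 10 of each strain, gave 3354 genes called between NOD and B6 (18.4%; 10.1% higher and 8.31% lower in NOD), and 666 of the 711 were among them with the same sign, which is 93.7% of the first list and 19.9% of the second. Only 37 higher and 8 lower genes were called in the matched pair and not in the other arrays. The group means of these comparisons come from different arrays but the same 4 pools, and the 20 arrays are not independent. Both comparisons also came from the same fit and share each gene's pooled spread. They share the choice of the most variable probe set too, which favours probe sets that differ between strains. A gene with a small spread and such a probe set is favoured in both lists. The overlap of 666 genes is therefore not independent evidence. With the pool as a random block the other arrays gave 2296 genes. In that setting 45 genes were higher in the matched pair and not in the others. The count depended on the arrays: it was 424 without B6 T3 replicate 1, 304 without NOD FO replicate 1 and 346 without NOD FO replicate 2, and 64 when the spread was taken from the 4 arrays alone. It was 334 with the mean of each gene's probe sets and 2503 with the 5' signal as a covariate.

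The balance of directions moved with the B6 T3 arrays. Without replicate 1 of B6 T3, 170 genes were higher and 254 lower in NOD FO, and without replicate 2, 438 were higher and 192 lower. A list's count of higher or lower genes carries this limit.

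Macrophage transcripts were the clearest group that set the NOD FO arrays apart. Of 31 measured genes of the macrophage list, 11 were called higher and none lower, 29 had a positive difference, and the median difference was 1.40. Over all 18193 genes 2.31% were called higher and 1.59% lower, 7829 had a positive difference, and the median was -0.05. The list's median was 1.50 and 1.44 in the NOD FO arrays and 0.14 and 0.13 in B6 T3. It lay between -0.22 and 0.19 in the other 20 arrays except replicate 2 of B6 MZ, which had 1.12. The sum over the list was 56.9 and 52.2 in NOD FO, 1.53 and 14.1 in B6 T3 and 47.5 in that B6 MZ array. That these transcripts were high in NOD FO was known when the comparison was chosen. The count, and the p-values given below for genes of this list, are therefore no independent evidence. In bulk samples more cells of a type and more RNA per cell cannot be told apart. Without NOD FO replicate 1 or without NOD FO replicate 2 the call was kept by 7 genes, and by 4 with the 4 arrays alone.

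**Figure D2:**
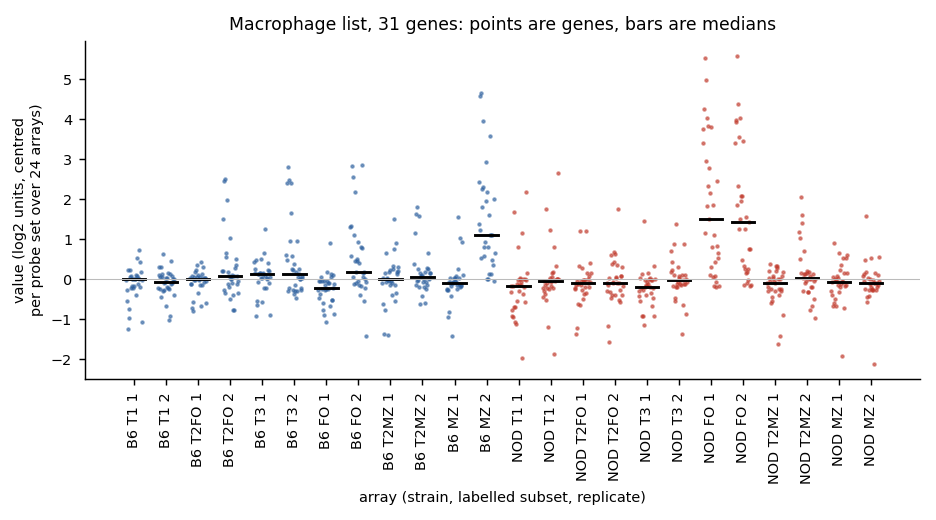
Values of macrophage genes (log2 units, centred per probe set) in each of the 24 arrays, ordered by group on the horizontal axis. The NOD FO arrays have list medians of 1.50 and 1.44, replicate 2 of B6 MZ has 1.12, and the other arrays have medians between -0.22 and 0.19.

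Among the called genes of the list the complement gene C1qc had the largest difference. It stood at 4.24 and 3.92 in NOD FO and at 0.16 and 0.49 in B6 T3, a difference of 3.76 ± 0.52 (SE, n = 2 and 2; limma with Benjamini-Hochberg adjustment, adjusted p = 0.000797), or 13.5-fold. Its partner C1qa, one of the genes used to describe the comparison, had 3.39 and 3.41 against 0.43 and 0.61; it is counted among the called genes, and without B6 T3 replicate 1 or without either NOD FO array it would not be. C1qb, the other chain of C1q, had 3.75 and 3.97 in NOD FO but 0.26 and 2.40 in B6 T3. The 2 B6 T3 arrays were thus alike in C1qc and C1qa and far apart in this probe set of C1qb, its most variable. Other probe sets of C1qb had 0.33 and 0.15, and 0.41 and 0.84, in B6 T3. Their differences were 3.84 and 2.25. By the most variable probe set C1qb had a difference of 2.53 and was not called (limma with Benjamini-Hochberg adjustment, adjusted p = 0.112). It was called with the mean of its probe sets and without B6 T3 replicate 2.

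Genes of red pulp macrophages followed. Spic, the transcription factor that makes red pulp macrophages, stood at 2.94 and 2.32 in NOD FO and at -0.55 and -0.23 in B6 T3, a difference of 3.02 ± 0.48 (limma with Benjamini-Hochberg adjustment, adjusted p = 0.0021). Hmox1, the enzyme that breaks down heme, had 1.16 and 1.84 against 0.49 and -0.29, a difference of 1.40 ± 0.29 with an adjusted p of 0.0109 by the same limma fit with Benjamini-Hochberg adjustment. Its call was lost without B6 T3 replicate 2 and without NOD FO replicate 2. Slc40a1, the iron exporter ferroportin, stood at 4.97 and 4.37 in NOD FO, with -0.64 in replicate 1 and 2.48 in replicate 2 of B6 T3. Vcam1, an adhesion molecule of these macrophages, had the highest values of the list, 5.52 and 5.57, against -0.91 and 2.81. Neither was called (limma with Benjamini-Hochberg adjustment, adjusted p = 0.275 and 0.181). The B6 T3 arrays lay more than 3 log2 units apart in these probe sets, the most variable of each gene. They were closer in the others, with 0.56 and -0.16, and 0.03 and 0.07, for Vcam1 and -0.001 and 1.16 for Slc40a1. The differences there were 1.89, 0.52 and 2.52. Both NOD FO arrays were above both B6 T3 arrays in all 4 genes.

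Cd163, Mrc1 and Cd68 of the list were called as well. Cd163, the receptor for haptoglobin-bound hemoglobin, stood at 3.81 and 3.45 in NOD FO and at 0.04 and 0.37 in B6 T3, a difference of 3.42 ± 0.53 (limma with Benjamini-Hochberg adjustment, adjusted p = 0.00171). Mrc1, the mannose receptor, had 4.02 and 3.56 against -0.06 and 1.65, and Cd68, a glycoprotein of macrophage lysosomes, 2.16 and 2.09 against -0.58 and -0.37. Their differences were 2.99 ± 0.67 and 2.60 ± 0.47. The replicates of NOD FO were close in each of the 3, and the groups did not overlap. The call of Mrc1 was lost without B6 T3 replicate 1 and without either NOD FO array, with an adjusted p of up to 0.206 (limma with Benjamini-Hochberg adjustment).

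Axl and Mertk, receptors by which macrophages bind and engulf dying cells, differed with less spread. Axl had 2.78 and 2.08 in NOD FO against 0.03 and 0.24 in B6 T3, a difference of 2.30 ± 0.30. Mertk had 1.50 and 1.95 against 0.17 and 0.25, a difference of 1.51 ± 0.24. Fcer1g, the signalling chain of Fc receptors, and Aif1, an actin-binding protein of macrophages, were called with 1.84 ± 0.35 and 0.97 ± 0.21. The call of Fcer1g was lost without NOD FO replicate 1, and that of Aif1 without any 1 of the 4 arrays. Csf1r, the receptor of the macrophage growth factor, had 3.83 and 4.02 against 0.14 and 2.40 and was not called. Adgre1, which encodes a macrophage surface antigen, had a difference of 1.55 and was not called.

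The rest of the macrophage list ran from values well above 0 to values near it. Fcgr3, an Fc receptor, had a difference of 1.57 ± 0.44, Ms4a7 of 1.06 ± 0.36, Cd5l, a protein secreted by macrophages, of 1.00 ± 0.55 and Marco, a scavenger receptor, of 0.56 ± 0.26, and none of these was called. Itgam, which encodes the depleted CD11b, stood at -0.17 and -0.14 in NOD FO and at 0.05 and 0.04 in B6 T3. Lyz2, the lysozyme of monocytes and neutrophils, had a difference of 0.17, Cd14 of 0.02, Timd4 of 0.01, Siglec1 of 0.15 and Trem2 of 0.11. Values of this kind show no level, and a gene that is dark on all arrays would also lie near 0. None of 12 measured neutrophil and monocyte genes, 12 T cell genes, 9 NK cell genes, 9 dendritic cell genes or 10 erythroid and platelet genes was called, with median differences of -0.04, 0.07, -0.07, -0.05 and 0.08. Of 14 plasma cell and secretion genes none was called, and their median was 0.51. Over all genes 3.91% were called, so small lists without a call are near that share. The lack of calls does not show that such cells were absent.

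The excess belonged to the NOD FO arrays under either partner. Against B6 FO, a comparison that shares the NOD FO arrays, the list had 14 genes called higher and a median of 1.65, where 3.95% of all genes were called and 2.29% were higher. Between the NOD and B6 arrays that both carry the T3 label, a comparison that shares the B6 T3 arrays, no macrophage gene was called and the median was -0.25, where 3.03% of all genes were called and 1.81% were higher. In the other 20 arrays NOD minus B6 gave 1 macrophage gene higher and 3 lower, with a median of -0.19. Of all genes 10.1% were higher and 8.31% lower there. The 1 higher gene of the list was Spic, at 0.93.

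Whether the matched pair differed from the strain difference of the other arrays was tested gene by gene. Those arrays include replicate 2 of B6 MZ, with a macrophage median of 1.12, which lowers NOD minus B6 there for macrophage genes. The difference between the differences was called in 11 genes (0.0605%), each higher in the matched pair, and 298 had an unadjusted p under 0.05; with the pool as a random block it was called in 16. Cadm1, an adhesion molecule, stood at 2.32 and 1.80 in NOD FO and at -0.09 and 0.23 in B6 T3, and its difference of 2.00 ± 0.17 exceeded that of the other arrays by 2.07 ± 0.19 (limma with Benjamini-Hochberg adjustment, adjusted p = 0.00049). The other genes were C1qc, Cd163, Axl and Mertk of the macrophage list, Lpl, Cd300a, Abcc3, Slc45a3, Sdc3 and Ankrd61. Without B6 T3 replicate 1 the test called 15 genes, 4 higher and 11 lower, without B6 T3 replicate 2 it called 3, without NOD FO replicate 1 it called 1 and without NOD FO replicate 2 it called 7.

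Lpl, a lipoprotein lipase that macrophages make, stood at 3.17 and 3.02 in NOD FO and at 0.08 in both B6 T3 arrays. Its difference was 3.01 ± 0.47 (limma with Benjamini-Hochberg adjustment, adjusted p = 0.00177). Abcc3, an organic anion transporter, had 1.89 and 1.48 against 0.22 and -0.27. Ankrd61, an ankyrin repeat gene, stood at 2.42 and 1.88 against -0.30 and -0.19, a difference of 2.40, and was also called in the other arrays with 0.91. It was the 1 gene of the 11 with a strain difference of the same sign called on both sides.

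Of the 37 genes called higher in the matched pair and not in the other arrays, 10 were members of the macrophage list: C1qc, Cd163, Mrc1, C1qa, Cd68, Axl, Fcer1g, Mertk, Hmox1 and Aif1. The others included more genes at home in phagocytes, named after their values were seen. Fcna, the lectin ficolin A, had 3.22 and 3.06 in NOD FO against 0.23 and 0.75 in B6 T3. Adamdec1, a protease of tissue macrophages, had 3.47 and 2.75 against -0.20 and 1.30, and Slc11a1, the metal transporter of phagosomes, 2.23 and 1.75 against 0.10 and 0.50. Each was higher in both NOD FO arrays than in either B6 T3 array. S1pr2, a sphingosine phosphate receptor that holds B cells in germinal centres, was among the 37 as well, at 1.48 and 1.33 against -0.04 and 0.74. The 8 lower genes included Gins1, a subunit of the replication helicase, at 0.24 and -0.24 against 0.91 and 1.76, and Mycn at -0.22 and -0.09 against 0.43 and 0.29. The number of higher genes was 16 without B6 T3 replicate 1, 15 without NOD FO replicate 1 and 19 without NOD FO replicate 2.

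**Figure D3:**
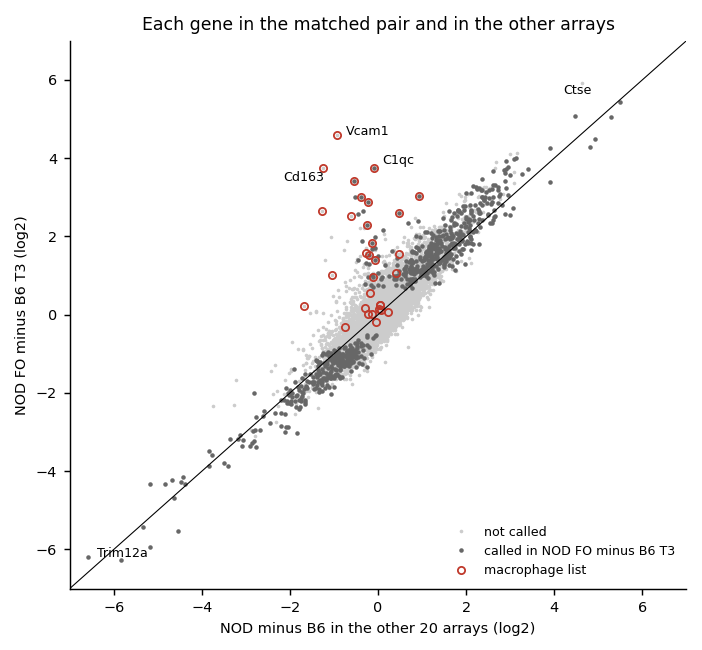
Difference NOD minus B6 of each of 18193 genes in the other 20 arrays (horizontal axis, log2) against NOD FO minus B6 T3 (vertical axis, log2). Dark points are genes called in the matched pair, light points are not called, red rings are the macrophage list and the line marks equal differences. Most dark points lie along the line, whereas macrophage genes such as C1qc (3.76 on the vertical and -0.10 on the horizontal axis) lie above the horizontal zero line.

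Apart from macrophage transcripts, the largest differences of the pair named here were also called in the other arrays. Ctse, an aspartic protease of antigen processing, stood at 2.82 and 3.13 in NOD FO and at -2.81 and -2.09 in B6 T3, a difference of 5.43 ± 0.41 (limma with Benjamini-Hochberg adjustment, adjusted p = 2.62e-06). Its value in the other arrays was 5.49. Its second probe set gave -0.61, so the size rests on 1 probe set. Inpp5f, a phosphoinositide phosphatase, had 2.19 and 2.11 against -2.21 and -2.02, a difference of 4.27, while its other probe sets gave 0.72 and 0.08. Rlf, a zinc finger protein, and Zfp979 were higher by 3.76 and 4.48. Other probe sets of Rlf gave 0.22 and 0.73. Genes with a lower signal in NOD included Map7, a microtubule-binding protein, at -1.91 and -1.77 against 2.21 and 1.86, and Arhgap26 at -1.47 and -2.04 against 2.48 and 2.66. Their other probe sets gave differences of -1.72 and -0.23 for Map7 and 0.03, -0.75 and -0.19 for Arhgap26. The probes of this array type were designed on a reference sequence close to B6, so a lower signal in NOD may also come from a mismatch under a probe; this was not tested.

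**Figure D4:**
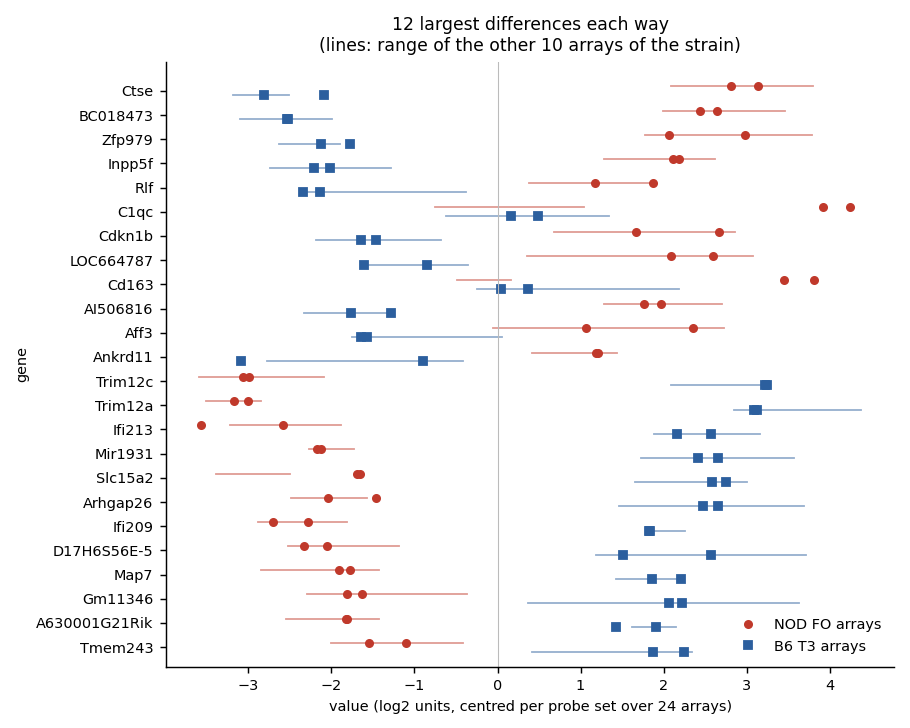
Values (log2 units, centred per probe set) in the NOD FO and B6 T3 arrays, 1 point per array, of the 12 largest called differences each way among genes chosen for arrays that do not overlap and for a mean over probe sets that was also called. Larger differences in single probe sets, such as Rps9 and Phgdh, are therefore not shown; Trim12a has -3.17 and -3.01 in NOD FO against 3.13 and 3.09 in B6 T3.

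Among the gene lists used here, the interferon-inducible Ifi200 and Trim clusters held the most genes called lower in NOD FO. Many genes induced by interferons carry a short element with repeated GAAA letters in their promoters. Of 13 measured genes of the Ifi200 and Trim clusters, which encode DNA sensors and antiviral proteins, 7 were called lower and 1 higher, with a median of -1.05. Of 19 measured interferon response genes, 2 were called lower and 1 higher. A negative difference was found in 18 of them, and the median was -1.46. Over all 18193 genes 1.59% were called lower and 2.31% higher, 7829 had a positive difference, and the median was -0.05. The other arrays had the same kind of difference, with 10 response genes lower, 1 higher and a median of -0.97. Of all genes 8.31% were lower and 10.1% higher there. Against B6 FO none of the 19 was called, where 3.95% of all genes were, and the median was -0.44.

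The promoters of 4 genes of these lists are shown because they carry the interferon response element that links them as a group; capitals mark the element, which is GAAA, any 2 letters and GAAA again, searched on both strands. Each is the 250 bases before the transcript start in RefSeq (GRCm38.p6), 5' to 3' on the gene's strand: Rsad2 at chr12:26456453-26456702, minus strand; Ifi213 at chr1:173599273-173599522, minus strand; Trim12c at chr7:104353350-104353599, minus strand; Stat2 at chr10:128270248-128270497, plus strand.
Rsad2: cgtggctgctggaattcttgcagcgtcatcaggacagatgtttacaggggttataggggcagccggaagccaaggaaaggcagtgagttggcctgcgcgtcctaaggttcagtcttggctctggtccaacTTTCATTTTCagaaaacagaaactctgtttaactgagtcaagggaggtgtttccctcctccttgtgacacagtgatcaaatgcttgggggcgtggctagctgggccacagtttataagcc
Ifi213: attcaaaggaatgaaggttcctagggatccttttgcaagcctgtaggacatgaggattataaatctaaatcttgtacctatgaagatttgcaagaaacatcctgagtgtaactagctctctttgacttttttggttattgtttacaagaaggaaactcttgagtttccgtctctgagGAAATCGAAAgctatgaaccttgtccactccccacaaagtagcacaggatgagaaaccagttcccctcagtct
Trim12c: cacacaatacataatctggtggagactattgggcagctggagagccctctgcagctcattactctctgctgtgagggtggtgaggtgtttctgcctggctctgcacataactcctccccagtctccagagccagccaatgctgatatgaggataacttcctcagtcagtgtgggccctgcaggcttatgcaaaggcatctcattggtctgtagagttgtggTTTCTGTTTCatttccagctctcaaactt
Stat2: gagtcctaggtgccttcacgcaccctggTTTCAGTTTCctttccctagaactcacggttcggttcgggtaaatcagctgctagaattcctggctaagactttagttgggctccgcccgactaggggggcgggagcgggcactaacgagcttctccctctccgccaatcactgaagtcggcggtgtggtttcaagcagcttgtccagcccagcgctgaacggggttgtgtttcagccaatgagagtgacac

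The element lay 120 bases before the start in Rsad2, 73 in Ifi213, 29 in Trim12c and 222 in Stat2. It was found in 2.98% of 32851 promoters, in 5 of 15 promoters of the interferon response list (33.3%) and in 8 of 15 promoters of the Ifi200 and Trim list (53.3%). A match is a description of the letters and no measured site. Rsad2, Ifi213 and Trim12c had lower signal in NOD FO than in B6 T3, Stat2 had higher signal, and Trim12a, whose window holds no match, had lower signal.

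The Trim12 genes, antiviral ring finger proteins of a cluster that differs between mouse strains, had the largest differences of the pair by their most variable probe sets. Trim12a stood at -3.17 and -3.01 in NOD FO and at 3.13 and 3.09 in B6 T3, a difference of -6.20 ± 0.27 (limma with Benjamini-Hochberg adjustment, adjusted p = 1.54e-08). Trim12c differed by -6.27 ± 0.37. The values hardly moved between replicates, and the other arrays gave -6.59 and -5.83. A second probe set gave -0.52 for Trim12a and -0.78 for Trim12c, so each size rests on a single probe set. Trim30a and Trim34a, relatives in the same family, had -1.72 and -2.22. Ifi213, of the family of cytosolic DNA sensors, stood at -2.58 and -3.57 against 2.57 and 2.16, and Ifi209 at -2.28 and -2.70 against 1.84 and 1.82. The second probe sets of Ifi213 and Ifi209 gave smaller differences, -1.73 and -0.31. Ifi204 of the same family went the other way, at 0.63 and 1.00 against -0.46 and -0.47, a difference of 1.28 (limma with Benjamini-Hochberg adjustment, adjusted p = 0.0217).

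Among response genes outside these clusters, Rsad2, the antiviral enzyme viperin, stood at -0.28 and -0.77 in NOD FO and at 1.98 and 2.87 in B6 T3. Its difference was -2.95 ± 0.46 (limma with Benjamini-Hochberg adjustment, adjusted p = 0.00185). Rtp4, a chaperone induced by interferon, had -1.11 and -2.45 against 0.86 and 1.64, and its call was lost without B6 T3 replicate 2 and without NOD FO replicate 2. Usp18, the protease that damps the interferon receptor, had -0.22 and -2.04 against 1.35 and 1.49 and was not called. Stat2, a transducer of interferon signals, was higher in NOD FO, at 0.31 and 0.16 against -1.20 and -0.74, a difference of 1.20 ± 0.26 (limma with Benjamini-Hochberg adjustment, adjusted p = 0.0147). That call was lost without B6 T3 replicate 1 and without either NOD FO array. Replicate 2 of NOD FO was lower than replicate 1 over the list, with medians of -0.77 and -0.14, and the B6 T3 arrays had 0.50 and 0.60.

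**Figure D5:**
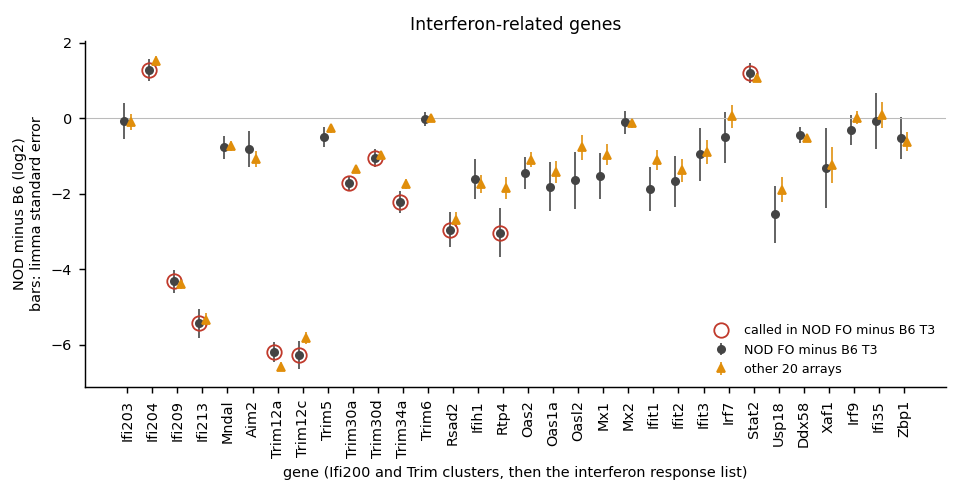
Difference NOD FO minus B6 T3 and difference NOD minus B6 in the other 20 arrays (log2, bars are limma standard errors) for genes of the Ifi200 and Trim clusters and of the interferon response list. Trim12a and Trim12c lie at -6.20 and -6.27 in the matched pair, and Ifi204 and Stat2 are the called genes above 0.

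Of 21 measured B cell receptor signalling genes 2 were called higher and none lower, with a median of 0.39. These and the lists that follow are small, and their counts stand beside 3.91% of all genes called, 2.31% higher and 1.59% lower. Pik3ap1, an adaptor that couples the B cell receptor to PI3 kinase, stood at 1.35 and 1.09 in NOD FO and at -1.34 in both B6 T3 arrays, a difference of 2.56 ± 0.20 (limma with Benjamini-Hochberg adjustment, adjusted p = 3.8e-06). The other arrays had 2.50. A second probe set of Pik3ap1 gave -0.27, so the size rests on a single probe set. Prkcb, a protein kinase C of the NF-kB arm, was called with 1.90 (limma with Benjamini-Hochberg adjustment, adjusted p = 0.0479), a call lost without any 1 of the 4 arrays. Other probe sets of Prkcb gave -0.38 and -0.08. Of 17 PI3 kinase and phosphatase genes Inpp5f was higher and Foxo3, a transcription factor that PI3 kinase signalling keeps out of the nucleus, was lower by -1.05, with the call lost without B6 T3 replicate 1 and without NOD FO replicate 2.

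Inhibitory coreceptors had a median of 0.59 over 14 genes, 13 of them positive and 2 called; the median was 0.29 with the mean of probe sets. Cd22, the sialic acid receptor that dampens the B cell receptor, stood at 1.37 and 0.74 in NOD FO and at -1.77 and -0.73 in B6 T3, a difference of 2.31 ± 0.44 (limma with Benjamini-Hochberg adjustment, adjusted p = 0.00729). Cd300a, an inhibitory receptor also present on myeloid cells, had 1.84 and 1.47 against 0.21 and 0.30. The second probe sets of Cd22 and Cd300a gave smaller differences, 0.30 and 0.24. Cd22 was higher by 1.78 in the other arrays as well, whereas Cd300a was lower there by -0.46, and its difference between the differences was among the 11 called. Both calls were lost without B6 T3 replicate 1 and without NOD FO replicate 1.

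Of 15 BAFF and NF-kB genes 1 was called, Ikbkb, the kinase that releases NF-kB, higher by 1.34 ± 0.28, and that call was lost without B6 T3 replicate 1 and without either NOD FO array. None of 13 BCL2 family genes was called, with a median of -0.07 (-0.05 with the mean of probe sets); Bid, a death-promoting member, had 1.00 and Bmf, another, -0.79. Of 18 Toll-like receptor genes and adaptors, Tlr6, which pairs with TLR2 to sense bacterial lipopeptides, was higher, at 0.34 and 0.41 against -1.34 and -0.95, a difference of 1.52 ± 0.21 (limma with Benjamini-Hochberg adjustment, adjusted p = 0.000715). Tirap, an adaptor of these receptors, was lower by -1.21, without a call when B6 T3 replicate 2 or either NOD FO array was left out.

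Transcription factors of the B lineage had a median of 0.75 over 20 genes, with 4 called higher and none lower. Ets1, which restrains the step to plasma cells, stood at 1.30 and 0.99 in NOD FO and at -1.72 and -2.26 in B6 T3. The difference was 3.13 ± 0.51 (limma with Benjamini-Hochberg adjustment, adjusted p = 0.00245), and its 4 probe sets ran from 1.10 to 3.17. Ikzf3, the factor Aiolos, had 0.76 and 1.22 against -2.37 and -1.68, Irf8 0.69 and 0.44 against -1.03 and -0.63, and Tcf4, an E protein, was higher by 1.36. The other arrays gave 2.44, 2.60, 1.19 and 1.20 for these 4. Further probe sets gave NOD FO minus B6 T3 differences of 0.08 and 0.35 for Ikzf3 and 0.44 for Irf8. The call of Irf8 was lost without NOD FO replicate 1.

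Class II genes had a median of 0.45 over 13 genes, 9 of them positive. H2-Ea was higher by 0.75, a call lost without any 1 of the 4 arrays, and H2-Aa was lower by -3.36 by its most variable probe set, while its 4 probe sets ran from -3.36 to 2.51 and their mean was -0.24. Of 19 cathepsins and proteases 13 were positive, with a median of 0.31 (0.20 with the mean of probe sets), and Ctse and Ctsb were called higher and none lower; Ctsb, a lysosomal protease abundant in macrophages, had 1.16 in both NOD FO arrays against -1.53 and -0.16. Of 16 costimulatory genes 1 was called, Slamf6, with 2.34 by 1 probe set and 0.40 by the mean. Of 23 migration and adhesion genes S1pr2 was higher and Cd44, the hyaluronan receptor, lower, at -0.68 and -0.45 against 0.74 and 1.18. The calls of Ctsb and S1pr2 were lost without B6 T3 replicate 1 and without either NOD FO array.

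The 2 B6 T3 arrays disagreed on proliferation. The median of 24 cell cycle genes was -0.01 in replicate 1 and 2.26 in replicate 2 of B6 T3, with 0.76 and 0.51 in NOD FO between them. Mki67, the marker of cycling cells, stood at -0.16 and 2.49 in B6 T3 and at 0.95 and 1.15 in NOD FO. None of the 24 was called, with a median difference of -0.42 (-0.25 with the mean of probe sets). Against B6 FO the median was 1.31, and between the arrays labelled T3 it was -1.26. Of 15 D cyclins and CDK inhibitors, Cdk6, a kinase of early G1, was lower in NOD FO, at -0.07 and -0.05 against 1.34 and 1.58, a difference of -1.52 ± 0.25 (limma with Benjamini-Hochberg adjustment, adjusted p = 0.00283). Ccnd1 was higher by 1.48, a call lost without B6 T3 replicate 1 and without NOD FO replicate 1. Cdkn1b, the inhibitor p27, had 3.72 in 1 probe set and -0.85 in the other. Other probe sets gave 0.12 and -0.47 for Ccnd1 and -0.75 and 0.11 for Cdk6.

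A difference in a single probe set was common. Of the 711 called genes 560 had several probe sets, and in 107 the mean over them was less than 0.25 of the difference or of opposite sign. Of all 711, 287 were also called, with the same sign, on the mean. That count includes genes with 1 probe set, whose mean is the same value. Scd2, a fatty acid desaturase, had 4.28 by its most variable probe set and 1.02 by the mean, Phgdh, the first enzyme of serine synthesis, -5.53 and -1.28, and Birc6 4.01 and 0.82. Rps9, a ribosomal protein, had -5.94 in 1 of 3 probe sets. Ets1 and Hmgcs1 were among the genes with the same sign in every probe set. Other genes named above also had probe sets with much smaller differences, such as 0.24 for Lpl and 0.17 for Axl.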

How the data were processed

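RMA was the method of the authors for the deposited log2 values (source: per the submitters' processing notes). Its version and the log base are not given in the sources used here; base 2 was assumed. Labelled RNA had been amplified in 2 cycles from oligo(dT), per the labels' protocols. Each probe set was found centred on its median over the 24 arrays (largest median 5e-07 in size), so no level was known and no dim genes were filtered out. The table listed 45101 probe sets: 34945 with 1 gene, 932 with several, 9160 unnamed and 64 controls. The most variable probe set stood for each of 18193 genes, which favours probe sets that differ between strains. A mean per group was fitted to all 24 arrays with limma 3.58.1 (R 4.3.3) and eBayes, with 12 residual degrees of freedom, and an adjusted p under 0.05 counted as called. With 2 arrays a group, the precision rests on a spread pooled over all 24 arrays. The p-values measure the spread between 2 pools of a strain. The groups, members and gene lists were chosen with earlier results of these data known. Genes could be named under a rule, and not all that it covered are named. It covered the 12 largest called differences each way whose arrays do not overlap and whose mean over probe sets was also called. From each list it covered up to 3 called members or, without any, the 2 with the smallest p. Any macrophage gene, markers and Nnt could be named too. The rule also covered the 8 largest differences each way from the other arrays, and 4 each way with disagreeing probe sets. Genes named beyond it were chosen after their values were seen. Replicate numbers did not pair NOD FO with B6 T3: the deviations of same-numbered arrays from their group means had a correlation of -0.093, and the strains came from different mice. In data simulated for the NOD FO and B6 T3 comparison over 18193 genes, with 50 genes changed at each size, 17 were found at a log2 change of 1, 41 at 2, 44 at 3 and 48 at 4, with 10 false among 160 calls. The simulated noise was independent between arrays and had the same SD in every group. The data had a correlation within pools of 0.116 and a spread of 0.256 in NOD FO and 0.538 in B6 T3. These rates may therefore not hold for the data. Gene names and promoters came from RefSeq tables (GRCm38.p6), used for names and sequences. Alternatives were the mean of probe sets, other scalings, array weights, a replicate block, a random pool block, a 5' covariate, the 4 arrays alone, and each array left out.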

Additional observations from a re-analysis of the deposited data

Results flagged for a closer look

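In 11 genes the difference between NOD FO and B6 T3 was larger than the difference between the strains in the other 20 arrays by a test of that excess (limma with Benjamini-Hochberg adjustment), and each is given with the excess in log2 units. For macrophage genes the excess was 3.976 in Cd163, 3.8517 in C1qc, 2.5454 in Axl and 1.7132 in Mertk. Outside that list it was 3.5418 in Lpl, 2.0662 in Cadm1, 1.8568 in Cd300a, 1.7721 in Abcc3, 1.5883 in Slc45a3, 1.4873 in Ankrd61 and 1.084 in Sdc3. In 10 of the 11 the other arrays had a difference between -0.56 and -0.06, and Ankrd61 had 0.91 there. The B6 side of that difference includes replicate 2 of B6 MZ, with a macrophage median of 1.12, so the excess of macrophage genes is partly measured from that array. The macrophage list's median, 1.50 and 1.44 in the NOD FO arrays, was above that of all 22 other arrays.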

How the results depend on the processing

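The NOD FO and B6 T3 call count of 711 was 334 with the mean of probe sets (287 shared), 64 with the 4 arrays alone (2153 at an unadjusted p under 0.05), 2503 with the 5' covariate and 1864 without the 6 B6 arrays lowest in 5' signal, a setting chosen after seeing the data. Leaving out 1 array gave 304 to 630. The macrophage count of 11 was 4 with the 4 arrays alone, 19 without the 6 arrays and 7 to 11 with 1 array left out. The count of genes with a difference from the other arrays, 11, was 19 with the covariate, 18 after quantile normalization, 40 after median absolute deviation scaling, 5 with array weights, 49 without the 6 arrays and 1 to 15 with 1 array left out. The 37 genes higher here and not in the other arrays became 83 with the covariate, 57 after quantile normalization, 66 after median absolute deviation scaling, 183 without the 6 arrays and 15 to 43 with 1 array left out. The cause of these shifts was not tested, beyond the fewer arrays in the fits with arrays left out. The replicate block, which pairs arrays of unrelated pools, gave 801 calls, 693 of them shared, and 13 macrophage genes. Without probe sets marked x or s, Ctse turned to -0.61 (limma with Benjamini-Hochberg adjustment, adjusted p = 0.898), Rps9 to 0.066 and Tmsb10 to -0.077, since another probe set stood for them. With the 4 arrays alone, 30 of the 75 called genes followed by name kept their call and 45 lost it. Of 75 called genes followed by name, 46 kept their call without each of the 4 arrays in turn, 54 with the mean of probe sets and 75 with the covariate.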

Other observations

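Of 14 measured lipid synthesis genes 2 were called lower in NOD FO and 1 higher, with a median of -0.32 against -0.05 over all genes. Hmgcs1, an early enzyme of cholesterol synthesis, stood at -0.26 and -0.71 in NOD FO and at 1.07 and 1.38 in B6 T3, a difference of -1.71 ± 0.23 (limma with Benjamini-Hochberg adjustment, adjusted p = 0.000642) with all 5 probe sets negative. Sqle, which makes squalene epoxide in the same pathway, had -0.27 and -0.63 against 0.41 and 1.21, a call lost without B6 T3 replicate 2 and without either NOD FO array. The other arrays had -1.50 and -1.33 for them.

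Gimap3, a GTPase of lymphocyte survival, stood at -0.43 and -0.52 against 1.13 and 0.40 and was 1 of 8 GIMAP genes called; the median of the 8 was -0.85. Its call was lost without B6 T3 replicate 1 and without either NOD FO array. Il6st, the shared receptor chain of the interleukin 6 family, was higher by 1.89 ± 0.39 and Rgs18, a brake on G protein signals, lower by -2.47 ± 0.61. The call of Il6st was lost without B6 T3 replicate 1 and without NOD FO replicate 2, and that of Rgs18 without B6 T3 replicate 2 and without either NOD FO array. Immediate early genes had a median of 0.90 over 17 genes, heat shock and folding genes 0.61 over 15 and respiratory chain genes 0.20 over 17, with none called in these lists; with the mean of probe sets the last 2 medians were 0.20 and 0.03.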
